A study of Mus musculus with 21 samples.

Results

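The step from the unfertilised oocyte to the 1-cell embryo of the mouse was described from 4 of the 14 short-read RNA libraries of the series, 2 of oocytes and 2 of 1-cell embryos, and from the 2 long-read pools of the same stages among 7. The series holds 21 samples in all, from sperm to blastocyst. The members were chosen by the stage that their titles give. Oocytes (C57/BL6J) were arrested at metaphase II and were lysed 20 h after human chorionic gonadotropin. The 1-cell embryos (♂DBA/2J x ♀C57/BL6J) came from matings with DBA males, named DBA/2J in the titles and DBA/2N in the protocol, and were lysed 24 to 26 h after the same injection, so that stage, genotype, culture and a few hours of time all differ together. All females were 3 to 5 weeks old and were superovulated with 7.5 IU of each of 2 hormones, pregnant mare serum gonadotropin and, 48 h later, human chorionic gonadotropin. Each library was made from pooled cells, and 2 batches of amplified cDNA were mixed for each long-read pool. The labels do not say that the 2 libraries of a stage came from separate animals, so the p-values below measure a spread between libraries. For genes and transcripts that spread was taken over 12 libraries, oocyte to blastocyst, and for isoform shares over the 4.

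The full-grown oocyte does not transcribe. It carries a store of maternal mRNAs, many of them held silent with short poly(A) tails, and after meiosis resumes and the sperm enters, some of these messages are polyadenylated in the cytoplasm and translated while others are deadenylated and degraded. The sequence UUUUAU or UUUUAAU near the 3′ end, the cytoplasmic polyadenylation element, is bound by the protein Cpeb1 and acts together with the nuclear polyadenylation signal AAUAAA or AUUAAA. The 1-cell embryo also begins a low and widespread transcription, called minor genome activation, before the main wave in the 2-cell embryo.

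The cDNA was primed at the poly(A) tail and amplified by the Smart-seq2 protocol. A message with a longer tail and a message present in more copies therefore cannot be told apart in these libraries. Levels are given in TPM, read numbers divided by transcript length and scaled to a fixed total per library, so they give a share of the measured RNA and not an amount per embryo. Less RNA per cell and fewer cells in a pool cannot be told apart either. TPM keeps no read depth. The number of genes at 1 TPM or more was 7049 and 6972 in the oocyte libraries and 7957 and 7491 in the 1-cell libraries. The Pearson correlation of log2(TPM + 1) across 10000 genes, which are not independent replicates, was 0.903 between the oocyte libraries, 0.926 between the 1-cell libraries and 0.872 to 0.899 between stages. All 16 oocyte markers were present at 1 TPM or more in each of the 4 libraries, with a summed level of 34890 and 47430 TPM in oocytes and 17720 and 10360 TPM in 1-cell embryos. The sperm markers with a merged transcript, 19 of 20, summed to 27.0 and 45.3 TPM in oocytes and to 50.3 and 21.8 TPM in 1-cell embryos, against 28140 and 23750 TPM in sperm, and Odf2 was the highest of them in all 4 libraries. Of 20 markers of cumulus cells, the somatic cells that surround the egg, only 5 had a merged transcript, and these summed to 1.08 and 1.95 TPM in oocytes and to 2.82 and 3.41 TPM in 1-cell embryos, with Vim, Col4a1 and Col4a2 among them.

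Short stretches from the 3′ ends are shown first because one element in them was more frequent among genes lower than among genes higher at the 1-cell stage, a difference that is described below without a test. The messages below had a level in both 1-cell libraries under that in both oocyte libraries, and their most abundant transcript holds TTTTAT or TTTTAAT within 30 bases of a polyadenylation signal. They are 4 of the 6 with the largest differences among those called or with a mean of at least 500 TPM in oocytes, and were chosen after their values were seen. Capitals mark the cytoplasmic polyadenylation element and the polyadenylation signal, and the sequence is that of GENCODE M21 on GRCm38 (mm10), read 5′ to 3′ along the message.
Fam69b (chr2:26636474-26636493, plus strand): taAATAAAtggcTTTTATgt
Gdf9 (chr11:53437862-53437891, plus strand): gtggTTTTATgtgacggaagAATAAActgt
Gm1070 (chr6:71302835-71302863, plus strand): caTTTTATcttggatttcaccAATAAAaa
Mfap2 (chr4:141015937-141015965, plus strand): ctctgTTTTATacaaaatAATAAAagttt

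In 3 of the 4 the element lies before the signal, by 13 to 19 bases from start to start, and in Fam69b it follows the signal. For comparison, 3 messages that rose between the stages end with a polyadenylation signal, in capitals, and hold neither TTTTAT nor TTTTAAT in their last 150 bases. They were picked for this among the largest rises, so the contrast between the sets is one of choice, and Calm2, with a larger rise than Chchd2 or Copz1, does hold the element.
Kpna2 (chr11:106988642-106988671, minus strand): catgtcctgtaaataaagATTAAAgttcca
Chchd2 (chr5:129881167-129881196, minus strand): tgattgtgagttaaaaaaAATAAAttggtt
Copz1 (chr15:103299826-103299855, plus strand): gctgctgtgcggcttaggAATAAAgtgaat

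Of the 10000 genes tested, 5 fell between oocyte and 1-cell embryo (0.05% of those tested) and 33 rose (0.33%), with limma on log2(TPM + 1) and a Benjamini-Hochberg adjusted p under 0.05. In all 38 (0.38%) the 2 oocyte and the 2 1-cell libraries did not overlap, whereas among all genes tested 9.02% were lower and 28.6% were higher in both 1-cell libraries without overlap. The median difference of all genes was 0.23 on this scale, and differences below are to be read against it. A difference on the log2(TPM + 1) scale understates the change of a gene with a low level. On simulated data in which each gene had its own spread in each stage, the test made more false calls than its threshold allows. More of the 38 calls may thus be false than the threshold of 0.05 implies. The residual spread came from 12 libraries, oocyte to blastocyst, and a fit on the 4 libraries alone called 0 genes, with 930 at an unadjusted p under 0.05 against 920 (9.2%) in the 12-library fit. Without oocyte replicate 1 the counts were 6 higher and 1 lower, and without oocyte replicate 2, 1-cell replicate 1 or 1-cell replicate 2 they were 0 and 0, with 924, 541 and 1007 genes at an unadjusted p under 0.05.

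**Figure D1:**
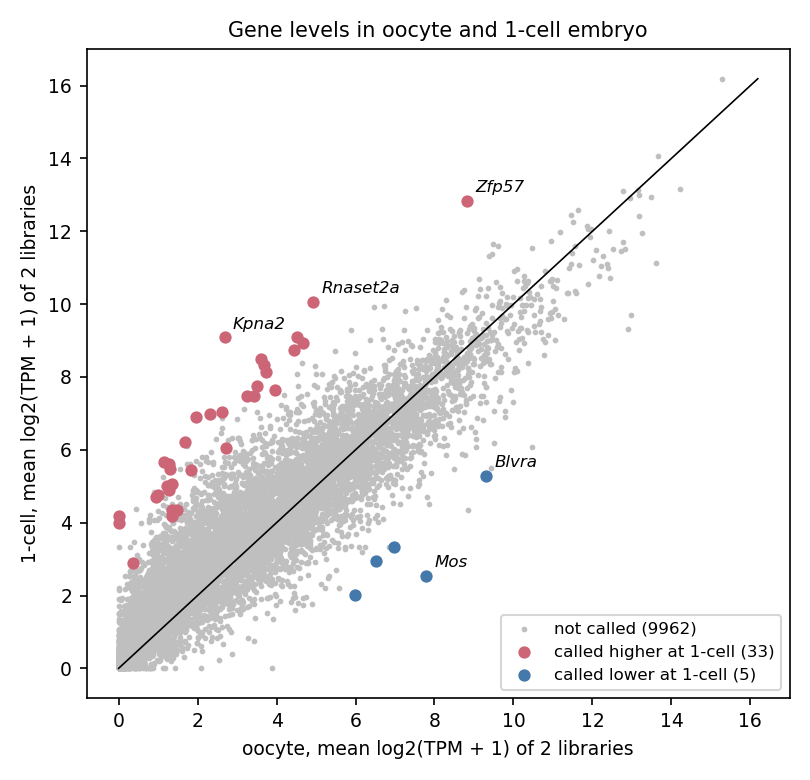
Each point is 1 of 10000 genes, with the mean log2(TPM + 1) of the 2 oocyte libraries on the x axis and of the 2 1-cell libraries on the y axis; the line marks equal levels. The 33 genes that rose (red) lie above the line, with Zfp57 at the highest level, and the 5 that fell (blue) lie below it.

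Mos, the kinase that activates the MAP kinase pathway and holds the egg at metaphase II, showed the largest fall. It stood at 89.9 and 543 TPM in the oocyte libraries and at 8.99 and 2.43 TPM in the 1-cell libraries, a fall by 5.25 on the log2 scale (SE 0.862, limma adjusted p = 0.0327). The oocyte libraries differed from each other by more than the 1-cell libraries did in TPM, and yet the lower of them was above the higher 1-cell library. Its mean was 2.15 TPM in 2-cell embryos and 3.04 TPM in 4-cell embryos, near the 1-cell level. Mos lies on chromosome 4 (3870657 to 3872105, minus strand), and its main transcript, of 1310 bases in 1 exon, holds no TTTTAT or TTTTAAT in its last 150 bases.

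Blvra, which encodes biliverdin reductase, was the most abundant of the 5. It stood at 782 and 508 TPM in oocytes and at 50.0 and 29.2 TPM in 1-cell embryos, and fell by 4.01 (SE 0.786, limma adjusted p = 0.0465). Its 6 merged transcripts include 2 that were called on their own. Ptprf, a receptor tyrosine phosphatase, went from 53.9 and 71.8 TPM to 5.00 and 1.68 TPM, a fall by 3.98 (SE 0.740, limma adjusted p = 0.0441). The level of Ptprf rests on 1 merged transcript, a single exon of 522 bases, and may not stand for the whole message. Both genes were close between the oocyte libraries and remained low in the 2-cell embryo, at 26.7 TPM for Blvra and 6.49 TPM for Ptprf.

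Fam69b, a membrane protein of the endoplasmic reticulum, stood at 124 and 65.2 TPM in oocytes and at 6.15 and 7.33 TPM in 1-cell embryos, a fall by 3.56 (SE 0.674, limma adjusted p = 0.0447). It is the called gene among the first set of sequences above. The merged transcript of Fam69b overlaps more than 1 annotated gene, so its level may hold reads of a neighbour.

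**Figure D2:**
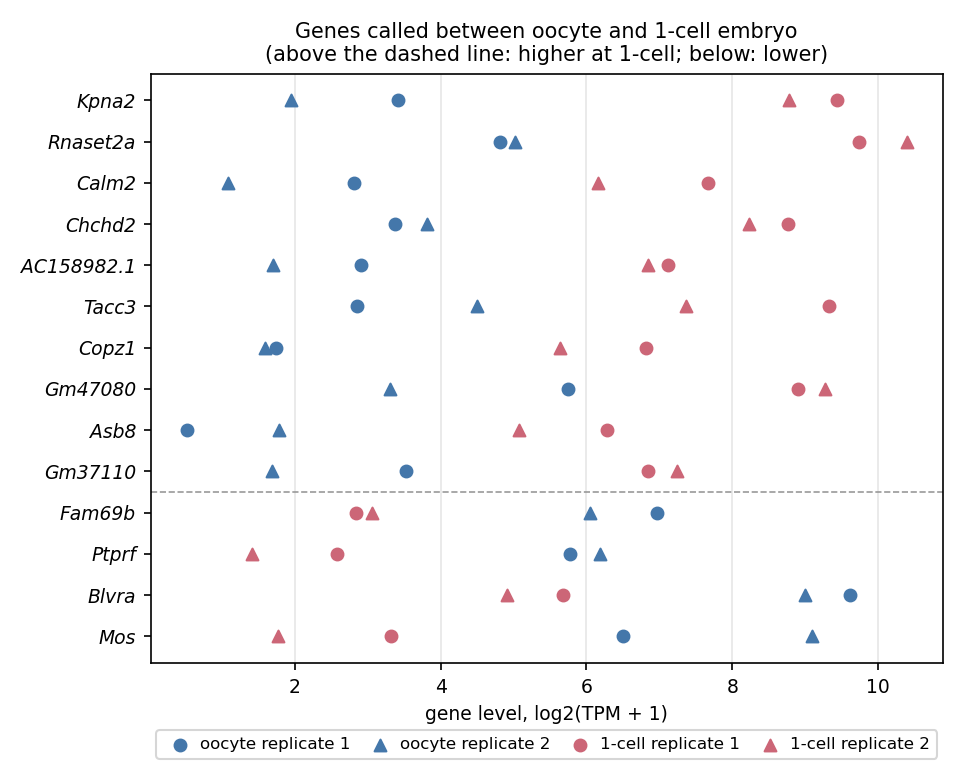
Levels in log2(TPM + 1) of the 10 called genes with the largest rise and of 4 called genes that fell, 1 point per library, with oocyte in blue and 1-cell in red and the replicate given by the shape. For every gene the blue and red points do not overlap, and the points of 1 stage lie farthest apart for Mos in oocytes.

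The largest rise was that of Kpna2 (chromosome 11, 106988629 to 106999541, minus strand), an importin alpha that carries proteins into the nucleus. It stood at 9.69 and 2.86 TPM in oocytes and at 688 and 436 TPM in 1-cell embryos, a difference of 6.42 (SE 0.779, limma adjusted p = 0.00884). Kpna2 was also the gene that passed when the replicate number was added to the fit. It kept a level of 251 TPM in 2-cell and 811 TPM in 4-cell embryos, and was at 3.38 TPM in sperm. The rise was carried by its annotated transcript of 11 exons and 1980 bases, at 9.46 and 2.86 TPM in oocytes and 686 and 436 TPM in 1-cell embryos. Gm10184 on chromosome 17, which rose from a value listed at 0 in both oocyte libraries to 22.1 and 9.95 TPM, shares 1968 bases at 99.9% identity with Kpna2, so reads of the 2 genes cannot be told apart with certainty.

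Zfp57 was the most abundant gene that rose. It encodes a zinc finger protein that binds methylated imprinted regions and keeps their methylation in the embryo. Zfp57 stood at 300 and 691 TPM in oocytes and at 9859 and 5473 TPM in 1-cell embryos, a rise by 4.01 (SE 0.726, limma adjusted p = 0.0399). Its mean was then 119 TPM in 2-cell, 36.8 TPM in 4-cell and 11.7 TPM in 8-cell embryos, so the 1-cell level stood above both neighbouring stages. In sperm it was at 3.46 TPM.

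Tacc3, a spindle microtubule protein, went from 6.24 and 21.6 TPM to 640 and 163 TPM (4.66, SE 0.898, limma adjusted p = 0.0455). Calm2, which encodes calmodulin, went from 6.02 and 1.12 TPM to 202 and 70.4 TPM (4.96, SE 0.984, limma adjusted p = 0.0465). In both genes the 1-cell libraries differed from each other by more than 2-fold and the oocyte libraries stayed far below them. Calm2 continued at 907 TPM in 2-cell embryos, above its 1-cell mean of 136 TPM.

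Chchd2, a protein of the mitochondrial intermembrane space, stood at 9.37 and 13.1 TPM in oocytes and 434 and 299 TPM in 1-cell embryos (4.90, SE 0.813, limma adjusted p = 0.0327). Copz1, a subunit of the coat of Golgi transport vesicles, stood at 2.36 and 2.02 TPM and then at 112 and 48.8 TPM (4.56, limma adjusted p = 0.0336). Asb8, a substrate receptor of cullin ubiquitin ligases, stood at 0.435 and 2.45 TPM and then at 76.5 and 32.8 TPM, a difference of 4.52. Rnf121, a ubiquitin ligase of the Golgi and endoplasmic reticulum, was listed at 0 in both oocyte libraries and stood at 16.8 and 17.7 TPM in 1-cell embryos. The level of Rnf121 rests on 1 merged transcript, a single exon of 111 bases, and may not stand for the whole message.

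Rnaset2a, a ribonuclease of the lysosome, stood at 27.1 and 31.6 TPM in oocytes and at 855 and 1337 TPM in 1-cell embryos (5.14, SE 1.02, limma adjusted p = 0.0465). Its level in sperm was higher still, with a mean of 4668 TPM. Of the 33 genes that rose, 6 had a sperm mean above the 1-cell mean, namely Rnaset2a, Chchd2, Rnf121, Fen1, Il10rb and Irf1. The part of sperm RNA in these rises was not tested. Rnaset2a shares 992 bases at 99.8% identity with Rnaset2b on the same chromosome, so the split of reads between them is uncertain, and its merged transcripts overlap more than 1 annotated gene, as does that of Il10rb.

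The other called rises were between 2.53 and 4.67 on the log2 scale. Of the 33, 24 were protein coding, and 8 had a single-exon main transcript. Of the 5 genes that fell, all were protein coding and 3 had a single-exon main transcript. AC158982.1, an annotated processed transcript on chromosome 14, stood at 6.49 and 2.27 TPM and then at 138 and 113 TPM (4.67). Gm47080, annotated as a long noncoding RNA, stood at 52.8 and 8.91 TPM and then at 476 and 617 TPM (4.56), and Gm37110 stood at 10.5 and 2.24 TPM and then at 114 and 150 TPM (4.43). The level of Gm47080 rests on a single exon of 1630 bases (chromosome 12, 81826309 to 81827938). That exon overlaps only the start of the gene (81827799 to 81853031) and may not stand for it. In the 2-cell embryo 32 of the 33 genes stood above their oocyte mean and 12 above their 1-cell mean, and in the blastocyst 14 were under 1 TPM. No called gene had a merged transcript on the opposite strand. Only 3 genes were under 1 TPM in both oocyte libraries and at 10 TPM or more in both 1-cell libraries, Nifk, Tmem120b and Rnf121, and 0 genes showed the opposite pattern.

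Among the 254 genes with a mean of at least 500 TPM over the 4 libraries, the balance was turned. Without overlap, 51 were lower at the 1-cell stage (20.1%) and 23 were higher (9.06%), with a median difference of -0.26. The following genes did not pass the test and were chosen after their values were seen. Plat, the tissue plasminogen activator, whose message is a textbook case of dormant oocyte mRNA, stood at 968 and 2093 TPM in oocytes and at 65.8 and 67.3 TPM in 1-cell embryos (-4.40, limma adjusted p = 0.0601). Upf1, the helicase of nonsense-mediated decay, stood at 11571 and 5001 TPM and then at 715 and 577 TPM (-3.56, limma adjusted p = 0.111). H1foo, the linker histone of the oocyte, stood at 12322 and 12737 TPM and then at 3542 and 1401 TPM (-2.49, limma adjusted p = 0.543). Among abundant genes on the other side, Oser1 stood at 53.3 and 206 TPM and then at 1272 and 757 TPM, and Birc5, the survivin of the chromosomal passenger complex, at 281 and 302 TPM and then at 1277 and 683 TPM. By tercile of the mean level of the 4 libraries, the share of genes lower without overlap went from 4.68% to 8.73% and 13.6%. The share higher was 32.4%, 32.7% and 20.7%, above the share lower in each tercile. The median difference was 0.17, 0.51 and 0.11.

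The 3′ ends were described for the 9084 genes (90.8% of those tested) whose most abundant transcript had sequence for its last 150 bases. TTTTAT or TTTTAAT, searched along the message strand and able to overlap the polyadenylation signal, was present in 2063 of them (22.7%, Wilson 95% interval 21.9 to 23.6). It was present in 296 of the 851 genes that were lower in both 1-cell libraries without overlap (34.8%, 31.7 to 38.0), and in 399 of the 2583 that were higher (15.4%, 14.1 to 16.9). These intervals cover counting error over genes only. AATAAA or ATTAAA was present in 75.1% of all genes, in 76.5% of those lower and in 68.7% of those higher. Of the called genes with sequence, 2 of 4 that fell and 5 of 29 that rose held the element, Calm2 among the latter, while 3 of 4 and 10 of 29 held the polyadenylation signal. Of the abundant genes named above, Plat and H1foo hold the element, and Upf1, Oser1 and Birc5 do not.

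**Figure D3:**
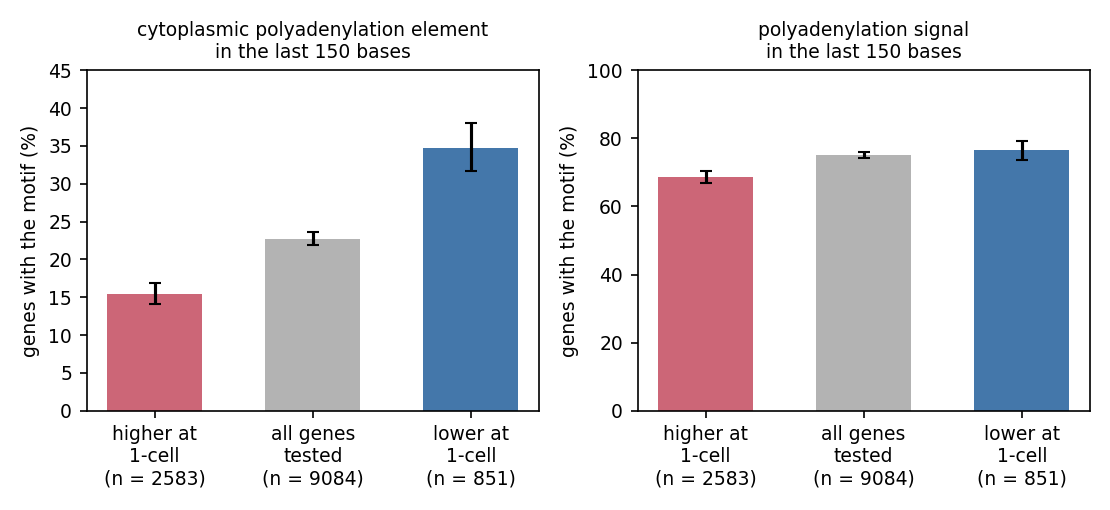
Share of genes, in percent, whose last 150 bases hold TTTTAT or TTTTAAT (left) or AATAAA or ATTAAA (right), for genes higher in both 1-cell libraries without overlap, all genes tested, and genes lower without overlap; bars are shares and error bars Wilson 95% intervals over genes. The left panel climbs from 15.4% to 22.7% and 34.8%, whereas the right panel goes from 68.7% to 75.1% and 76.5%.

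Genes with the element had a median difference of 0.04 between the stages (n = 2063), and genes without it had 0.30 (n = 7021). The median was lower with the element in all 4 pairings of an oocyte with a 1-cell library, at -0.08 to 0.29 with it and 0.10 to 0.58 without it. Of genes with the element 14.3% were lower and 19.3% higher without overlap, against 7.9% and 31.1% of genes without it. The element is rich in A and T, and it was more frequent where the window was, at a median A+T content of 66.7% with it and 56.7% without it. Within terciles of A+T content the medians with and without the element were 0.00 and 0.34 in the lowest, 0.04 and 0.31 in the middle and 0.05 and 0.23 in the highest. Within terciles of level they were 0.13 and 0.20, 0.11 and 0.60, and -0.15 and 0.19. The difference between genes with and without the element thus had the same direction in each tercile, and it was described without a test. Genes with the polyadenylation signal also had a lower median, at 0.21 against 0.31 without it. By tercile of A+T content the medians with and without the signal were 0.325 and 0.272, 0.21 and 0.34, and 0.13 and 0.35. A lower median was therefore not particular to the cytoplasmic polyadenylation element. Gdf9, an oocyte growth factor of the TGF-beta family shown above, had oocyte levels of 4176 and 15568 TPM and 1-cell levels of 1302 and 538 TPM (-3.27, limma adjusted p = 0.431). Gm1070 went from a mean of 852 to 68.9 TPM and Mfap2, a microfibril protein, from 744 to 150 TPM, neither of them called.

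Gene groups of the egg were described by their counts and their median difference, beside the 28.6% higher, 9.02% lower and median of 0.23 of all genes. Of 553 group members tested, Mos and Zfp57 were the genes that passed the test, beside 38 of all 10000 genes (0.38%). Where another member is named below its values are given without a call. Among 10 genes of the zona pellucida and oocyte growth factors, 4 were higher and 1, Gdf9, lower without overlap, with a median of 0.42. Bmp15, the partner of Gdf9 in the ovary, stood at 141 and 160 TPM and then at 386 and 1005 TPM, the opposite side from Gdf9. Of the subcortical maternal complex, a protein assembly under the egg membrane that the early embryo needs, 4 of 10 genes were higher and 0 lower, with a median of 0.95. Ooep stood at 202 and 50.5 TPM and then at 630 and 635 TPM, and Nlrp5 at 54.2 and 58.0 TPM and then at 137 and 515 TPM. Zbed3, another gene of the complex, was the most abundant of all group members, and its libraries overlapped, at 24172 and 64680 TPM in oocytes and 42130 and 132360 TPM in 1-cell embryos.

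Meiosis and egg activation were represented by 20 genes tested, of which 4 were higher and 3 lower without overlap (median 0.33). Beside Mos, Bub1b of the spindle checkpoint stood at 118 and 447 TPM in oocytes and 30.03 and 15.5 TPM in 1-cell embryos, and Fbxo5, an inhibitor of the anaphase-promoting complex also known as Emi1, at 387 and 320 TPM and then at 236 and 78.0 TPM. On the other side, Ccnb1, the cyclin of M phase, stood at 532 and 373 TPM and then at 1080 and 874 TPM, and its kinase Cdk1 at 0.300 and 0.704 TPM and then at 27.5 and 7.94 TPM. Fzr1, an activator of the anaphase-promoting complex, stood at 1.85 and 1.76 TPM and then at 12.0 and 11.1 TPM. Of 4 genes of sperm binding and the block to polyspermy, Cd9 was higher and Astl, the protease that cleaves the zona after fertilisation, was lower, at 42.5 and 32.9 TPM and then 10.8 and 7.16 TPM. Izumo1r, the egg receptor for the sperm protein Izumo1, overlapped at 8.57 and 35.2 TPM against 129 and 12.6 TPM.

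Of 21 genes of maternal mRNA decay, 5 were higher and 3 lower without overlap (median 0.30). Parn, a deadenylase, stood at 3.14 and 4.36 TPM in oocytes and 25.3 and 13.3 TPM in 1-cell embryos, and Dcp2, the decapping enzyme, at 65.8 and 43.7 TPM and then at 175 and 232 TPM. Btg4, the adaptor of the CCR4-NOT deadenylase in the egg and the most abundant of the group, overlapped between stages at 3528 and 9910 TPM against 5864 and 1441 TPM. Of 25 genes of mRNA storage and polyadenylation, 8 were higher and 2 lower (median 0.24). Pabpc1l, the poly(A)-binding protein of the egg, stood at 2.16 and 7.04 TPM and then at 102 and 35.7 TPM, and Eif4e1b, the oocyte cap-binding protein, at 24.8 and 19.2 TPM and then at 219 and 86.1 TPM. Pabpn1l, a poly(A)-binding partner of Btg4, stood on the other side, at 862 and 1226 TPM and then at 488 and 158 TPM. Zar1, which binds stored maternal mRNA, overlapped at 946 and 4016 TPM against 477 and 1534 TPM.

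Genes of early embryonic activation had 14 of 27 higher and 1 lower without overlap (51.9% and 3.70%, median 0.44), at low levels, with a median member mean of 0.244 TPM in oocytes and 1.32 TPM in 1-cell embryos. Duxbl1, a double homeobox gene, stood at 0.291 and 0.151 TPM in oocytes and at 12.4 and 6.58 TPM in 1-cell embryos, and Zfp352 at 0.338 and 0.102 TPM and then at 2.19 and 11.1 TPM. Zscan4c stood at 0.435 and 0.178 TPM and then at 1.25 and 1.30 TPM, and Duxf3 at 0.572 and 0 TPM and then at 1.17 and 1.46 TPM. Obox1, the most abundant of the group, is a maternal homeobox gene and overlapped at 1715 and 382 TPM against 873 and 707 TPM. Many of these genes belong to families of near-identical copies, among which the split of reads is uncertain, and so do the oogenesins and their F-box relatives, where 7 of 17 were higher and 0 lower (median 0.73). Oog3, the most abundant oogenesin, overlapped at 1882 and 636 TPM against 2293 and 1729 TPM.

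Chromatin and DNA genes were mixed. Of 23 histones and histone chaperones, 5 were higher and 3 lower (median -0.05), with Npm2, the chaperone that remodels sperm chromatin, at 55.9 and 16.6 TPM and then at 148 and 106 TPM, opposite to H1foo. Slbp, the histone mRNA-binding protein and the most abundant of the group, overlapped at 6286 and 21095 TPM against 11994 and 5180 TPM. Of 14 genes of DNA methylation and imprint protection, 5 were higher and 3 lower (median 0.02). Dnmt1, the maintenance methyltransferase, stood at 59.8 and 39.6 TPM and then at 231 and 160 TPM, whereas Dnmt3b, a de novo methyltransferase, stood at 22.1 and 44.0 TPM and then at 13.4 and 5.51 TPM. Trim28, the corepressor that Zfp57 recruits, stood at 30.7 and 65.3 TPM and then at 24.3 and 10.8 TPM. Of 41 DNA replication genes 16 were higher and 3 lower (39.0% and 7.32%, median 0.59), among them Orc2 at 3.98 and 16.6 TPM and then 37.8 and 28.9 TPM, while Rfc5 stood on the other side at 551 and 197 TPM and then at 105 and 138 TPM.

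Groups of general cell function had no called member, where 0.38% of all genes were called. Of 79 cytosolic ribosomal protein genes 30 were higher and 2 lower (38.0% and 2.53%, median 0.82), and of 78 mitochondrial ribosomal protein genes 28 and 2 (35.9% and 2.56%, median 0.55). Rplp2, the most abundant of the first, was among the 2 lower, at 545 and 217 TPM and then 158 and 116 TPM. Oxidative phosphorylation had 25 of 77 higher and 2 lower (median 0.76), and the CCT chaperonin 3 of 8 higher and 0 lower (median 1.08). The most abundant members of these groups overlapped, Mrpl19 at 722 and 117 TPM against 275 and 237 TPM, Cox5a at 619 and 1541 TPM against 1159 and 885 TPM, and Cct8 at 116 and 471 TPM against 288 and 313 TPM. The proteasome had 13 of 36 higher and 0 lower (median 0.41), with Psmc2 at 1.15 and 0.384 TPM and then 39.2 and 7.65 TPM, while its most abundant member Psma7 overlapped at 1456 and 2827 TPM against 1861 and 418 TPM. The 53 translation initiation factors had 15 higher and 5 lower (28.3% and 9.43%, median 0.30), near all genes, and Eif4e3, a cap-binding protein, stood at 6376 and 4403 TPM and then at 2494 and 1940 TPM. The 9 sperm markers tested had 0 higher and 0 lower without overlap, with Odf2 at 14.8 and 39.4 TPM and then 29.0 and 18.4 TPM, and of the 3 cumulus markers tested Col4a2 was higher, at 0 and 0.718 TPM and then 1.56 and 2.33 TPM.

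At the level of transcripts most of the called rises lay outside annotated genes. Of 20250 merged transcripts tested, 389 rose (1.92%) and 17 fell (0.084%), with the same test, and 24.7% and 7.97% were higher and lower without overlap. Of the 389, 303 (77.9%) overlapped no exon of an annotated gene on their strand, and 248 of these had a single exon. The share that rose was 9.38% of the 2645 single-exon transcripts outside genes and 5.16% of the 1066 multi-exon transcripts outside genes. Inside genes it was 0.645% of 2171 single-exon and 0.501% of 14368 multi-exon transcripts. Of the 17 that fell, 12 were multi-exon and 3 single-exon transcripts of genes. The share that fell was 0.0835% of multi-exon and 0.138% of single-exon transcripts inside genes. Outside genes it was 0.0938% and 0.0378%. Without overlap, the share higher was 25.6% of single-exon and 25.8% of multi-exon transcripts outside genes and 22.2% and 24.9% inside genes, and the share lower was 3.21% and 3.28% outside and 12.9% and 8.45% inside. A fit on the 4 libraries alone called 0 transcripts, with 1846 at an unadjusted p under 0.05 against 1776 (8.77%) in the 12-library fit. Without oocyte replicate 1 the counts were 400 higher and 21 lower, without oocyte replicate 2 they were 1 and 2, without 1-cell replicate 1 they were 1 and 1, and without 1-cell replicate 2 they were 0 and 1.

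The 303 transcripts outside genes were spread over 21 chromosomes and were 192 to 3109 bases long, with a median of 1224 bases. Summed, they took 0.962% and 0.168% of all TPM in the oocyte libraries and 10.9% and 11.7% in the 1-cell libraries. They took 12.0% and 12.2% in the 2-cell, 1.90% and 2.53% in the 4-cell, 0.0413% and 0.0472% in the 8-cell and 0.0132% and 0.00387% in the blastocyst libraries. In sperm they took 0.0329% and 0.0649%. All 303 were at 1 TPM or more in both 1-cell libraries, and 288 and 217 of them also in the oocyte libraries, with oocyte replicate 1 above replicate 2 in 297. At the blastocyst stage 288 had a mean under 1 TPM. The most abundant of them, TCONS_00022282 (chromosome X, 50229425 to 50229847, minus strand, 423 bases in 1 exon), stood at 946 and 124 TPM in oocytes and at 9552 and 7588 TPM in 1-cell embryos. TCONS_00018141 (chromosome 7, 65479596 to 65480798, plus strand, 1203 bases in 1 exon) stood at 218 and 36.8 TPM and then at 3018 and 3475 TPM. Annotated genes together held 86.5% and 93.3% of all TPM in oocytes and 80.4% and 81.9% in 1-cell embryos, and with TPM rescaled to annotated genes 27 genes rose and 1, Mos, fell. The 86 transcripts of annotated genes that rose went from 0.0805% and 0.105% to 1.98% and 1.42% of all TPM, and were at 0.855% and 0.869% in sperm.

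**Figure D4:**
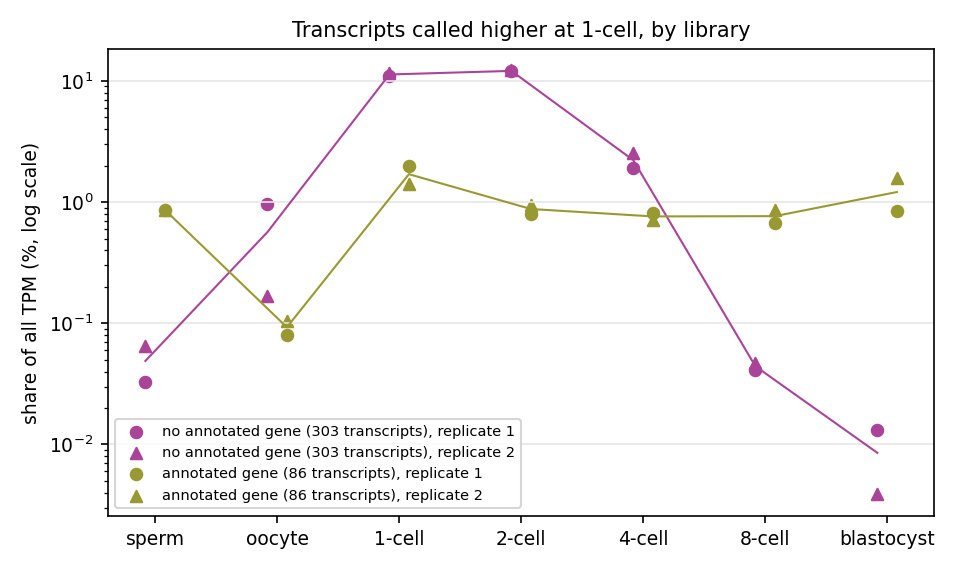
Summed share of all TPM, in percent on a log scale, of the transcripts that rose between oocyte and 1-cell embryo, for 303 outside annotated genes (purple) and 86 of annotated genes (olive), in each of the 14 libraries; points are libraries and lines join stage means. The purple line stands at 10.9% and 11.7% at the 1-cell stage, and in the blastocyst at 0.0132% and 0.00387%, while the olive points stay between 0.67% and 1.98% from the 1-cell stage on.

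Some of these transcripts share sequence, and salmon divides reads among similar transcripts. Sequence was at hand for 89 of the 389 that rose, and 15 of these shared at least 100 bases at 80% identity or more with another that rose, in 3 groups. Kpna2 with Gm10184 and Rnaset2a with Rnaset2b are 2 of them. The third holds 11 transcripts, of Gm23292, Gm36976, Gm37110, Gm43042, Gm44087, Gm45663, Gm47080 and 4 outside genes, TCONS_00018141 among them. Of all tested transcripts, 51 shared sequence with this group, the 11 included. Of the 51, 21 were higher and 8 lower without overlap, and 0 were called lower. The 11 count among the higher by the way the group was formed. Over all tested transcripts 24.7% were higher and 7.97% lower without overlap. The called genes Gm47080 and Gm37110 named above belong to this group, so the split of reads among these loci is uncertain.

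The largest difference of a single transcript was that of TCONS_00005892 (chromosome 13, 95337124 to 95337404, minus strand, 281 bases), which stood at 7887 and 21095 TPM in oocytes and at 0 in both 1-cell libraries (-13.66, limma adjusted p = 4.16e-06). It lies inside an exon of Zbed3, on the opposite strand. Its level was 32.63% of that of the Zbed3 transcript in oocyte replicate 1 and 32.62% in replicate 2. The sum of the pair was 32058 and 85767 TPM in oocytes and 42126 and 132350 TPM in 1-cell embryos and overlapped between the stages. The libraries are not stated to keep the strand, so RNA from the 2 strands cannot be told apart here.

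The named transcripts of annotated genes differed in the direction of their genes' totals, but not in each case by as much. Rnaset2b, whose gene total did not pass, had a transcript of 9 exons (TCONS_00008418) that rose from 11.6 and 21.02 TPM to 615 and 1062 TPM (5.60, limma adjusted p = 0.0173). Calm2 rose in TCONS_00009484 by 5.09, AC158982.1 in TCONS_00006404 by 5.395 and Rnaset2a in TCONS_00008954 by 5.14. Plat, whose gene total did not pass, fell in TCONS_00019477, of 11 exons and 2153 bases, from 557 and 32.02 TPM to 0.219 and 0 TPM (-6.94, limma adjusted p = 0.00875), with the oocyte libraries far apart from each other. Blvra fell in TCONS_00011352 by 4.77 and in TCONS_00011355 by 4.38, and Mos in TCONS_00014382 by 5.28. Papola, the nuclear poly(A) polymerase, fell in TCONS_00004632, from 10.3 and 64.5 TPM to 1.12 and 0.913 TPM (-3.76, limma adjusted p = 0.0384), while the total of the gene overlapped between the stages, at 36.1 and 135 TPM against 46.5 and 19.8 TPM (-1.18, limma adjusted p = 0.756).

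Isoform shares, each isoform as a percent of its gene's TPM, were tested with limma for 7244 isoforms of 2650 genes on the 4 libraries, and 0 passed an adjusted p under 0.05 (0.0%), with 411 at an unadjusted p under 0.05 and a smallest adjusted p of 0.694. On simulated data this 4-library test recovered none of the changes put in, so the 0 does not show that shares were unchanged. A fit on 12 libraries called 6. Without overlap, 15.6% of isoforms had a higher and 14.5% a lower share at the 1-cell stage, and 941 isoforms of 524 genes differed without overlap by more than 10 points of share. The following were chosen after their values were seen. Lamb1, a laminin chain, had 88.7% and 69.9% of its TPM in oocytes in TCONS_00004310, of 10 exons, and 5.11% and 10.8% in 1-cell embryos, where a single-exon transcript of 180 bases took the rest. Dcp1a, a decapping cofactor, had 5.82% and 28.7% in TCONS_00006107, of 7 exons, and then 72.9% and 74.3%. Most of its oocyte share, 83.1% and 50.7%, lay in TCONS_00006109, of 2 exons. In Lamb1 and in Dcp1a the transcript that lost share and the one that gained do not overlap on the genome. Their shares thus compare different parts of the locus, and a switch between whole isoforms cannot be read from them. Rnaset2b had 24.97% and 12.6% in its 9-exon transcript and then 88.0% and 80.04%. The TPM-weighted mean transcript length of 2649 genes was longer at the 1-cell stage without overlap in 427 (16.1%) and shorter in 363 (13.7%), with a median difference of 0.0111 bases.

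The long-read pools gave 7034 transcripts at 4755 loci in oocytes and 7943 transcripts at 5102 loci in 1-cell embryos, from 3744 and 3701 annotated genes. With 1 pool a stage there is no replicate check of these values. The transcripts had a median of 826 bases in oocytes (quartiles 511 and 1275) and 724 bases in 1-cell embryos (462 and 1058), and the longest had 4634 and 3485 bases. The paper sequenced the 1-cell pool in more than 1 run and lists shorter raw reads, on average, for these runs than for the oocyte pool. The part of sequencing in the difference of lengths was not tested. More than 1 exon was found in 77.1% (Wilson 95% interval 76.1 to 78.0) and 76.6% (75.7 to 77.6). Multi-exon transcripts were matched by intron chain, the same or contained. Single-exon transcripts were matched by a reciprocal overlap of 80% with another of 1 exon, or by lying inside an exon of the other pool. By these rules 47.9% of oocyte transcripts (46.7 to 49.1) were found in the 1-cell pool and 50.7% of 1-cell transcripts (49.6 to 51.8) in the oocyte pool. These intervals cover counting error only.

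**Figure D5:**
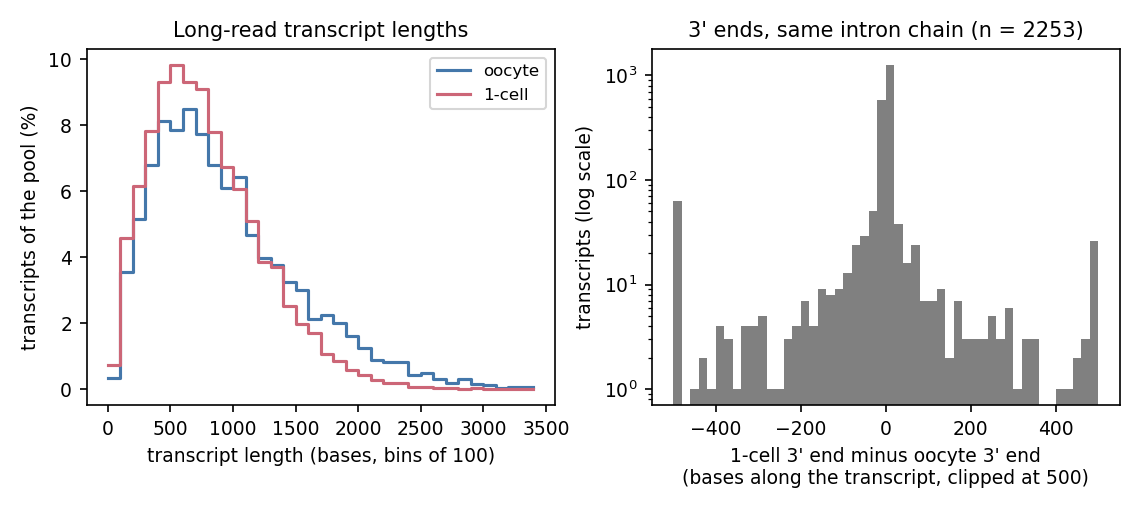
Left, lengths of long-read transcripts in bins of 100 bases, in percent of the oocyte (blue) and 1-cell (red) pool; right, distance in bases between the 3′ ends of 2253 transcripts with the same intron chain, positive where the 1-cell end lies downstream, on a log count axis and with distances past 500 gathered in the end bins. The red curve lies above the blue one under 1000 bases and below it past 1300, at medians of 724 and 826 bases, and the right panel has its peak at 0.

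For 2253 transcripts with the same intron chain in both pools, the 3′ ends lay within 50 bases of each other in 86.6%. The 1-cell end lay more than 50 bases downstream in 123 (5.46%, Wilson 95% interval 4.59 to 6.48) and upstream in 178 (7.90%, 6.86 to 9.09). The 5′ ends lay within 50 bases in 81.3%. Ccna2, the cyclin of S phase, ended 1108 bases farther downstream in the 1-cell pool (chromosome 3, minus strand, 36565970 in oocytes and 36564862 in 1-cell embryos), with lengths of 1699 and 2778 bases in 8 exons. Naa30, a subunit of an N-terminal acetyltransferase, ended 1458 bases and Rmi1, a partner of the BLM helicase, 2017 bases farther downstream. On the other side, the 1-cell ends of Zfp655, Pcdh9 and Lysmd4 lay at -3660, -2608 and -2577 bases from the oocyte ends, that is upstream, and the Zfp655 transcript was 4102 bases long in oocytes and 428 bases in 1-cell embryos. The gene level of Ccna2 overlapped between the stages, at 175 and 676 TPM in oocytes and 251 and 1072 TPM in 1-cell embryos.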

How the data were processed

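Stage and replicate number were taken from the sample titles. The authors mapped the long-read transcripts of each stage to mm10 with GMAP, collapsed them and merged the stages with Cuffmerge. The authors ran salmon over the 22612 merged transcripts and deposited TPM per library. TPM over each stage's own transcripts was not used.

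Here transcripts were given to GENCODE M21 genes by same-strand exon overlap and gene TPM was summed. Genes and transcripts with at least 1 TPM in at least 2 of 12 libraries (oocyte to blastocyst) were fitted with limma 3.58.1 in R 4.3.3 (trend, stage as the only term, pseudocount of 1, Benjamini-Hochberg, 0.05). Shares were fitted on 4 libraries for genes with a mean of at least 5 TPM in both stages. No count test was possible on TPM. Tested on simulated data in which each gene had its own spread in each stage, the gene test made more false calls than its threshold allows, and the test of shares recovered none of the changes put in. For the 3′ ends, up to 10% of the 150 bases could be unknown, a choice made after the coverage was seen. Sequence sharing was found with blastn 2.17.0.

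The members, lists and tests were chosen with earlier results of these data known. Named genes are the 10 largest rises and falls among called genes without overlap, of each list the 2 called members with the largest change or else the most abundant member, the 5 largest called transcript rises and falls in genes with several transcripts, and the 3 farthest moved 3′ ends each way at 10 TPM or more. Others were chosen after their values were seen. Some genes and sequences that these rules select are not reported here. Rescaling TPM to annotated genes was an alternative added after the data were seen.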

Additional observations from a re-analysis of the deposited data

How the results depend on the processing

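The counts of genes that rose and fell, 33 and 5 in the 12-library fit, depended on the setting. They were 22 and 1 with a pseudocount of 0.1, 0 and 0 without a filter on low values (960 at an unadjusted p under 0.05), 56 and 10 with a minimum of 5 TPM, 5 and 4 after quantile normalization, which moved the median of all genes from 0.23 to -0.06, 0 and 0 on 4 libraries, 75 and 11 with the spread weighted by stage, 24 and 2 with multi-exon transcripts only, and 27 and 1 with TPM rescaled to annotated genes, an alternative chosen after seeing the data. Leaving out 1 library gave 0 to 6 and 0 to 1. For transcripts, 389 and 17 became 288 and 64 after quantile normalization, 0 and 0 on 4 libraries, 464 and 33 with the spread weighted by stage, and 0 to 400 and 1 to 21 with 1 library left out. The single library left in a stage was then assumed to vary like the other stages. List members called were 2 of 553 in the 12-library fit, where 0.38% of all genes were called. They were 0 without a filter, 1 after quantile normalization, 0 on 4 libraries, 5 with weights and 1 of 535 with multi-exon transcripts. Isoform shares called were 6 on 12 libraries and 0 in the other settings. The cause of these moves was not tested, beyond the fewer libraries or genes that a setting holds.

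With the replicate number as a block, 1 gene rose and 0 fell, 326 transcripts rose and 8 fell, 0 list members were called and 0 shares were called. The labels do not say whether these numbers pair the samples. Deviations of same-numbered oocyte and 1-cell libraries correlated at -0.09, and those of all pairs of stages at -0.55 to 0.48. With 2 libraries a stage such correlations cannot show or exclude a pairing.

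Of genes given with their levels but without a call, the log2 difference changed sign for Obox1 (0.33 after quantile normalization, 0.10 after rescaling, -1.13 to 1.04 with a library left out), Slbp (0.20 after quantile normalization, -1.42 to 0.33 with a library left out), Mrpl19 (0.022 and -1.50 to 1.12 likewise) and Odf2 (0.078 after rescaling, -0.74 to 0.61 with a library left out). With 1 library left out it also changed sign for Izumo1r (-0.45 to 2.80), Ccna2 (-0.46 to 1.64), Cox5a (-0.61 to 0.71) and Cct8 (-0.65 to 1.36). No called gene or transcript given with its levels changed sign under these settings.

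With contained transcripts left out, that is by the same intron chain or by reciprocal overlap, 40.3% of oocyte and 38.7% of 1-cell long-read transcripts were matched. Among multi-exon transcripts, with contained ones counted, 53.7% and 55.6% were matched. The 1-cell 3′ end lay downstream in 7.41% and upstream in 11.1% at more than 20 bases, and in 3.82% and 5.95% at more than 100 bases. In the last 300 bases the element was present in 30.5% of all genes, 22.8% of those higher and 42.7% of those lower, and the polyadenylation signal in 77.5% of all and 71.3% of those higher. Depth is unknown from TPM, and 2 libraries a stage limit what could be called.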
